A study of Mus musculus with 6 samples.

Results

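The genes of the glutathione, thioredoxin and antioxidant enzyme systems were described in the choroid plexus (ChP) of adult and embryonic mice. Members were taken by gene symbol: the superoxide dismutases, catalase, glutathione peroxidases, peroxiredoxins, thioredoxins and their reductases, the enzymes that make and recycle glutathione, the glutathione S-transferases, and NRF2 (Nfe2l2), KEAP1 and 3 detoxification enzymes. The rule gave 56 of the 24354 rows of the table. There were 7 genes, Gpx2, Gpx5, Gpx6, Gsta1, Gsta2, Gstt4 and Mgst2, with 0 in all 6 samples, while 47 had a mean level above 1 FPKM (sequenced fragments scaled to transcript length and library size, so a level per length) and were tested. Gstm3 and Gstp2 were above 0 in 1 sample each.

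The ChP is an epithelial structure inside the brain ventricles that is held to secrete cerebrospinal fluid (CSF) in adults. The study proposes that it also clears CSF early after birth. Its methods name the lateral ventricle ChP as the tissue. All animals, of either age, carried both Foxj1:cre and the bacTRAP transgene EGFP:L10a. The Foxj1 promoter drives Cre in the ChP epithelium and also in other multiciliated cells such as ependyma. Cre switches on a green fluorescent ribosomal protein L10a, so that ribosomes of these cells, with the mRNA on them, can be pulled down (translating ribosome affinity purification, TRAP). There were 3 adult samples, 60 days old per the labels and 8 weeks old per the study's methods, and 3 samples of embryonic day 16.5 (E16.5). The methods describe pools (3 mice for an adult sample, 3 litters for an embryonic one) and the series design names only 3 mice for each age, so the p-values measure the spread between these samples whatever animals stand behind them. The methods state that the study used both sexes, while the sex of each pool and any batch were not given in the sources used here.

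As background, superoxide made by mitochondria and oxidases is turned by superoxide dismutases into hydrogen peroxide. Catalase, glutathione peroxidases and peroxiredoxins then remove hydrogen peroxide. The glutathione peroxidases and peroxiredoxins also reduce lipid peroxides, and they draw electrons from glutathione or thioredoxin and in the end from NADPH. Glutathione S-transferases couple glutathione to reactive compounds. NRF2 is the transcription factor that drives many of these genes, and KEAP1 holds it back. The ChP is known as a site of detoxification between blood and CSF and is rich in conjugating enzymes.

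The adult libraries were shallower and more variable than the embryonic ones. Read counts were not in the table used here, but the steps between low FPKM values gave a relative depth of 1 to 2.93 in the adult libraries and 4.16 to 5.17 in the E16.5 libraries, as an estimate. Of the 47 members tested, 13, 4 and 15 were listed at 0 in adult samples 1, 2 and 3, against 1, 3 and 2 in the E16.5 samples. Genes that every cell uses were among those at 0, such as Eef1g, a subunit of translation elongation factor 1, at 0, 1.57 and 0 FPKM in adult and 23.4 to 31.2 FPKM at E16.5, so an exact 0 is given here as "listed at 0" and may be a failed estimate. A single feature, Mir6236, held 32.7% to 51.7% of the summed FPKM in adult and 13.3% to 15.0% at E16.5. On the log2(FPKM + 1) scale the median gene lay 0.86 lower in adult than at E16.5, and the members' median change is therefore also given relative to that shift. Changes of single genes are given as fitted, and set against the shift each would lie 0.86 higher.

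Markers of the ChP epithelium were abundant at both ages, summing to 38720 to 53649 FPKM in adult and 3374 to 3605 FPKM at E16.5. In adult, Ttr (mean 27322 FPKM) and Enpp2 (mean 16676 FPKM) led the list and made up most of its sum. At E16.5, Folr1 and Clic6 led it. The list went both ways. Ttr, Enpp2, Kl and Kcnj13 were called higher in adult, and Otx2, Foxj1 and Krt18 were called higher at E16.5. Foxj1, whose promoter drives Cre here, averaged 48.7 FPKM over the adult samples against 187 over the embryonic ones (adjusted p = 0.0127 by limma). Whether this bears on the pull-down was not tested. Ttr was listed at 0 in all E16.5 samples, where 9 of the 10 markers were above 0. On the deposited scale, lists of markers of 4 other kinds of cells were higher at E16.5 without overlap. Other scalings were not applied to these sums. Red blood cell genes summed to 0 to 6.49 FPKM in adult, with 8 of 9 at 0 in every adult sample, and to 56.7 to 388 FPKM at E16.5. Mesenchymal markers summed to 13.3 to 22.0 FPKM in adult and 58.6 to 69.4 FPKM at E16.5. Neuronal and progenitor markers were at 0.145 to 9.88 against 26.9 to 114 FPKM. Of these, Sox2 was at 25.3 to 26.4 FPKM in the E16.5 samples. Tubb3 was at 36.2, 0.623 and 0.134 FPKM there and Stmn2 at 25.3, 0 and 0 FPKM, so most of both came from E16.5 sample 1. Dividing-cell markers were at 0 to 16.5 against 17.8 to 40.5 FPKM, a narrow gap. Endothelial sums (0.489 to 19.0 against 12.3 to 40.8 FPKM), macrophage sums (0.0695 to 7.35 against 0.584 to 8.48 FPKM) and astrocyte sums (0 to 6.82 against 4.11 to 10.9 FPKM) overlapped between ages. The leading genes were Pdgfra and Dcn, Hbb-bs and Hba-a2, Sox2 and Tubb3, Cdk1 and Top2a, Kdr and Cldn5, C1qa and Csf1r, and Aldh1l1 and Slc1a3. Top2a, a topoisomerase of dividing cells, was listed at 0 in adult and was at 4.72 to 12.7 FPKM at E16.5 (adjusted p = 0.0280 by limma). In such bulk samples, fewer cells of a type and less RNA per cell cannot be told apart, and the part of these cells in the results was not tested.

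In adult ChP, 2 antioxidant genes were higher and 7 lower than at E16.5. The extracellular superoxide dismutase Sod3 and the epoxide hydrolase Ephx1 rose with age. Gpx7, Gpx8, Prdx2, Gss, Gstt2, Gsta4 and Mgst3 were lower in adult. The calls came from limma on log2(FPKM + 1) with p-values adjusted by Benjamini-Hochberg over all 11601 genes tested and a threshold of 0.05. By the same rule, 2.12% of all genes tested were higher in adult, against 4.26% of the members, and 8.83% were higher at E16.5, against 14.9% of the members. With all genes in view the split of calls depended on the scaling, from 119 higher in adult and 3200 lower when every sample was given the same sum, through 246 and 1024 on the deposited scale and 347 and 656 with median-ratio scaling, to 464 and 453 after quantile normalization. For the members the split was 2 and 17, 2 and 7, 2 and 5, and 2 and 5.

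Across the members, 37 of 47 (78.7%) had a change below 0, where 72.8% of all genes tested did. All adult samples lay below all E16.5 samples for 17 members (36.2%, against 31% of all genes), and above them for 2 members (4.26%, against 7.39%). At an unadjusted p under 0.05, 2 members were higher in adult (5.34% of all genes tested were) and 16, or 34% of the members, were higher at E16.5 (25.9% of all genes). The members' median change was -1.14 (log2, adult minus E16.5), or -0.29 relative to the median of all genes. The 4 members with 0 in all samples of an age do not set this median, since each lies on the same side of it whatever the size of its change. Among the 27 members above 0 in all 6 samples, the median was -0.65, where it was -0.38 for the 6562 genes of that kind. The members thus lay near the background of the table as a list. Single genes and the shares within enzyme groups are described below, and no background over other gene groups was computed for the shares.

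**Figure D1:**
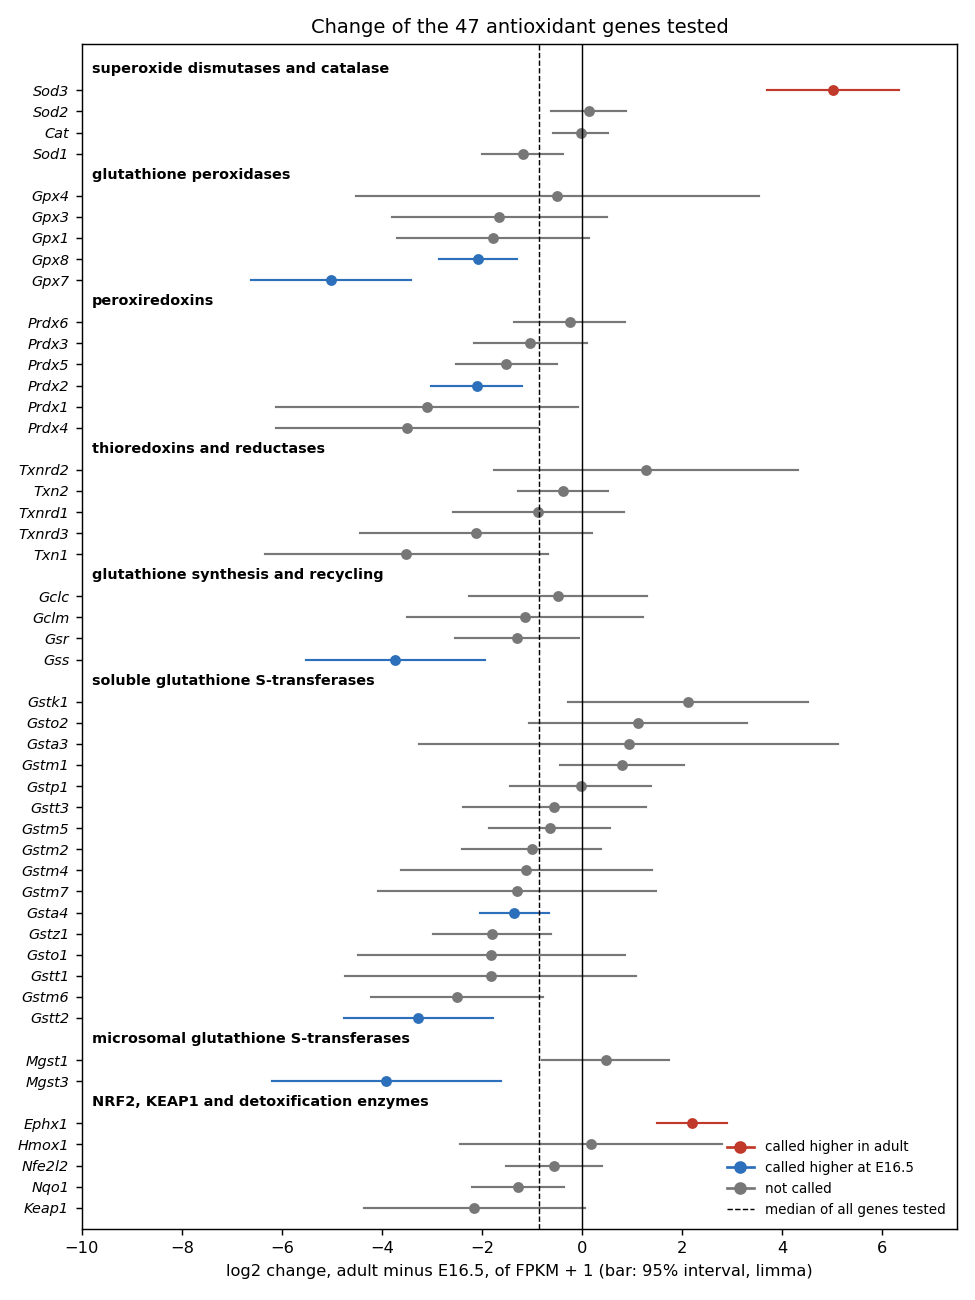
Change of each of the 47 members tested, ordered by enzyme group, as the log2 difference adult minus E16.5 of FPKM + 1 (point) with its 95% interval from limma (bar). Red marks the 2 genes called higher in adult, blue the 7 called higher at E16.5 and grey those not called. The dashed line is the median of all genes tested, at -0.86, and most grey intervals span it.

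Of the superoxide dismutases and catalase, only Sod3 was called. Sod3, the secreted copper-zinc enzyme that protects the extracellular space (chr5:52363791-52371418, plus strand, mm10), was at 101, 119 and 81.3 FPKM in adult and at 0.562, 2.30 and 4.78 FPKM at E16.5. The groups were far apart, with means of 101 ± 18.8 and 2.55 ± 2.12 FPKM (SD, n = 3 each). The change was 5.02 ± 0.57 (log2, SE) with an adjusted p of 0.00464 by limma. It was called in 17 of the 18 alternatives and missed the threshold without E16.5 replicate 2 (adjusted p = 0.0558).

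The intracellular enzymes differed from Sod3. Cat, the peroxisomal catalase, was at 149, 169 and 139 FPKM in adult and 151, 146 and 167 FPKM at E16.5, with a change of -0.03 and a 95% interval of -0.58 to 0.52, and its sign was positive with median-ratio scaling (0.32) and quantile normalization (0.49). Sod2, the mitochondrial manganese enzyme, was at 91.2, 74.4 and 112 FPKM in adult and 68.6, 114 and 74.0 FPKM at E16.5 (interval -0.62 to 0.87, and -0.70 with every sample at the same sum). The ages overlapped for Cat and for Sod2. Sod1, the cytosolic copper-zinc enzyme and the most abundant of the group, was at 355, 435 and 187 FPKM in adult and 851, 679 and 597 FPKM at E16.5. Its samples did not overlap, but its change of -1.19 ± 0.35 had an adjusted p of 0.0677 by limma and was not called. It passed with every sample at the same sum (0.0139) and without adult replicate 2 (0.0410).

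Shares within the group do not depend on the scaling between libraries. Sod3 made up 15.1% ± 0.575 of the summed FPKM of the 4 genes in adult and 0.288% ± 0.261 at E16.5 (SD, n = 3). Sod1 made up 47.2% ± 9.85 in adult and 74.1% ± 4.66 at E16.5, and Cat 23.1% ± 3.19 against 16.5% ± 2.98. None of these shares overlapped between the ages, whereas the share of Sod2 did. The summed level of the group was 518 to 797 FPKM in adult and 842 to 1071 FPKM at E16.5, a gap that closed with median-ratio scaling.

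**Figure D2:**
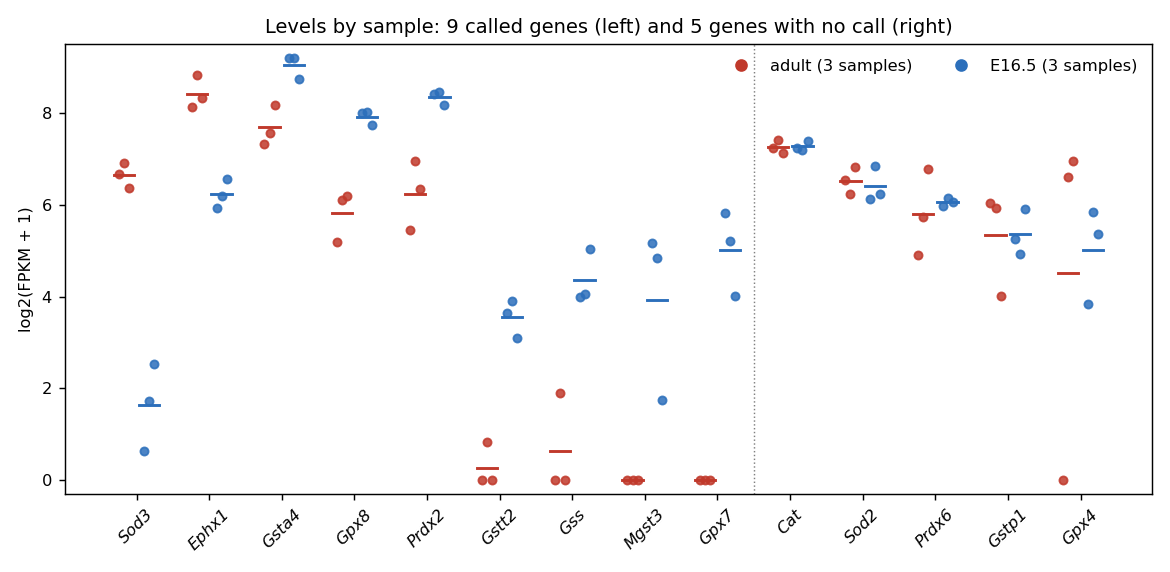
Level of the 9 called genes (left of the dotted line) and of 5 members with no call (right) in each sample, as log2(FPKM + 1). Each point is a sample, red for adult and blue for E16.5, and the short bars are group means. Sod3 and Ephx1 sit higher in all adult samples, and the adult points of Gpx7 and Mgst3 lie on 0.

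All 5 glutathione peroxidases tested had a change below 0, as 72.8% of all genes tested did, and 2 of them, Gpx7 and Gpx8, were called (8.83% of all genes were called higher at E16.5). Relative to the median of all genes, 4 lay below 0 and 1, Gpx4, above it. Gpx1, Gpx3 and Gpx4 use selenocysteine, read from an in-frame TGA codon, whereas Gpx7 and Gpx8, a soluble and a membrane-bound enzyme of the endoplasmic reticulum, have cysteine there. The coding sequence around that codon is shown because it tells these enzymes apart. The called members have a cysteine codon there and the 3 others have TGA, but whether the enzymes of either kind changed differently was not tested, and the changes of Gpx1 (-1.78) and Gpx3 (-1.66) were close to that of Gpx8 (-2.09). Capitals mark the active-site codon (GENCODE transcripts on GRCm38, the build of the files, each 45 bases in the 5′ to 3′ sense of the gene):
Gpx1: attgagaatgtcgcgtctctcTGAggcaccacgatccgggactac
Gpx3: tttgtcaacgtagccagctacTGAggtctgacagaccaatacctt
Gpx4: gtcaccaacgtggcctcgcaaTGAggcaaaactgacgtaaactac
Gpx7: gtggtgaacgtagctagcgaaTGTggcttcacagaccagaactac
Gpx8: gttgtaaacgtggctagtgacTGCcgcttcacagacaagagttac

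The codon of Gpx1 lies at chr9:108339451-108339453, that of Gpx3 at chr11:54907256-54907258 and that of Gpx4 at chr10:80054737-80054739, all on the plus strand. Those of Gpx7, at chr4:108403430-108403432, and of Gpx8, at chr13:113045661-113045663, are on the minus strand.

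Both cysteine enzymes were lower in adult. Gpx7 was listed at 0 in all adult samples and was at 55.5, 36.1 and 15.1 FPKM at E16.5. At the estimated depth, 3 reads of Gpx7 would be worth 0.310 to 0.906 FPKM in the adult libraries, below every E16.5 value. Such a floor cannot tell an absent mRNA from a failed estimate, so the adult level of Gpx7 remains uncertain. Its adjusted p by limma was 0.00826, and it was called in 16 of 18 alternatives, missing the threshold without E16.5 replicate 1 (0.0599) or 2 (0.0632). Gpx8 was at 35.5, 67.4 and 71.9 FPKM in adult and 253, 257 and 211 FPKM at E16.5. Its groups were well apart, and its change of -2.09 ± 0.34 had an adjusted p of 0.0138 by limma. Leaving out E16.5 replicate 1, 2 or 3 took Gpx8 over the threshold (0.0725, 0.0744 and 0.0625). Beside these genes, the mesenchymal marker Pdgfra was at 2.20 to 5.91 FPKM in adult and 18.4 to 34.9 FPKM at E16.5 (adjusted p = 0.0296 by limma). Dcn, of the same list, was at 0 to 7.86 and 12.8 to 24.6 FPKM. Of the 6 genes of that list tested, only Pdgfra was called. Col1a1, Col1a2 (2.53 to 16.0 against 8.69 to 12.6 FPKM) and Pdgfrb (0 to 5.54 against 0.138 to 2.71 FPKM) overlapped between the ages. The part of mesenchymal cells in the levels of Gpx7 and Gpx8 was not tested.

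No selenocysteine peroxidase was called. Gpx1, the cytosolic enzyme, was at 6.65, 96.6 and 22.4 FPKM in adult and 90.6, 79.5 and 94.4 FPKM at E16.5, and adult sample 2 reached the embryonic level. Without that sample the change of Gpx1 passed the threshold (adjusted p = 0.0265). Gpx4, which reduces lipid peroxides in membranes, was listed at 0 in adult sample 1 and was at 96.5 and 122 FPKM in the other adult samples, against 13.4, 55.9 and 40.0 FPKM at E16.5. The sign of its change turned on that sample, at -0.49 with it and 1.76 without it. Of its 50-base stretches, 34.7% occurred also in another annotated gene, mainly the pseudogene Gpx4-ps2, so its level is uncertain. Gpx3, the secreted enzyme of plasma, stayed below 8.4 FPKM in every sample. Over the 6 selenoproteins tested, the thioredoxin reductases included, the median change was -1.27, near the -1.14 of the 41 other members, although no selenoprotein was called (10.9% of all genes tested were).

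All 6 peroxiredoxins had a change below 0, as 72.8% of all genes tested did, and 1 of them, Prdx2, was called (8.83% of all genes were called higher at E16.5). Relative to the median of all genes, 5 lay below 0 and 1, Prdx6, above it. Prdx2, a cytosolic peroxidase abundant in red blood cells and neurons, was at 42.8, 122 and 79.6 FPKM in adult and 340, 352 and 288 FPKM at E16.5. The groups did not overlap, and the change of -2.11 ± 0.39 had an adjusted p of 0.0216 by limma. It missed the threshold without E16.5 replicate 1 (0.0892), 2 (0.0886) or 3 (0.0730). Of the 50-base stretches of Prdx2, 12.0% occurred also in other genes, mainly the pseudogene Tdpx-ps1. The globin gene Hbb-bs was listed at 0 in all adult samples and was at 299, 3.90 and 86.4 FPKM at E16.5, and Hba-a2 was at 0 and at 20.4, 49.0 and 20.2 FPKM, although near-identical globin genes can share reads. The part of red blood cells in the level of Prdx2 was not tested.

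Prdx5, found in mitochondria, peroxisomes and cytosol, had the highest mean of all members at both ages. It was at 173, 579 and 406 FPKM in adult and 1026, 1122 and 834 FPKM at E16.5, without overlap, and its change of -1.52 ± 0.43 had an adjusted p of 0.0631 by limma (0.0299 without adult sample 2). Prdx4, the enzyme of the endoplasmic reticulum, was at 7.61, 31.3 and 0 FPKM in adult and 64.9, 85.3 and 69.7 FPKM at E16.5 (adjusted p = 0.0838). Prdx1, another cytosolic form, was at 37.6, 52.5 and 0.269 FPKM in adult and 150, 103 and 104 FPKM at E16.5 (adjusted p = 0.151). Adult sample 3 was thus near 0 for both, and Prdx1 and Prdx4 passed the threshold without it (0.0313 and 0.0442), as Prdx4 did without adult sample 2 (0.0265). For the mitochondrial Prdx3 the ages overlapped, at 10.7, 11.0 and 28.4 against 37.7, 27.6 and 31.3 FPKM, and it also passed without adult sample 3 (0.0363). Prdx6, which has a phospholipase activity beside its peroxidase activity, was at 29.1, 52.3 and 108 against 62.0, 69.4 and 65.4 FPKM, with a change of -0.25 (interval -1.36 to 0.86) that was positive with median-ratio scaling and after quantile normalization.

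Within the peroxiredoxins, Prdx5 held 63.6% ± 5.56 of their summed FPKM in adult and 61.6% ± 2.0 at E16.5, with overlap. Prdx2 held 13.8% ± 0.896 and 20.3% ± 0.333 without overlap, and Prdx6 held 11.1% ± 5.74 and 4.11% ± 0.52. The summed level was 301 to 848 FPKM in adult and 1393 to 1760 FPKM at E16.5, and the ages stayed apart with median-ratio scaling and with every sample at the same sum.

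Thioredoxins pass electrons to peroxiredoxins and other targets, and are themselves reduced by the thioredoxin reductases. These reductases are selenoproteins too, with the TGA codon at the end of the coding sequence, next to a cysteine codon. The last 30 coding bases, shown because the 3 genes share this motif and none was called, have the cysteine and selenocysteine codons in capitals, and the stop codon is the last triplet:
Txnrd1: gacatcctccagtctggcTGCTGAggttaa
Txnrd2: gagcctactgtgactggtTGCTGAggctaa
Txnrd3: gacattactcagaaaggcTGCTGAggctag

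The selenocysteine codon is at chr10:82896037-82896039 in Txnrd1, chr16:18477772-18477774 in Txnrd2 and chr6:89674789-89674791 in Txnrd3, all on the plus strand. Txnrd1, the cytosolic reductase, was at 35.4, 44.8 and 6.30 FPKM in adult and 27.0, 65.0 and 39.8 FPKM at E16.5. Txnrd2, of mitochondria, was listed at 0 in 3 of the 6 samples and reached 15.9 FPKM. Txn1, the cytosolic thioredoxin, was at 0, 21.4 and 32.3 FPKM in adult and 134, 81.6 and 99.3 FPKM at E16.5. The groups did not overlap, but with a 0 in adult sample 1 the change of -3.52 ± 1.21 had an adjusted p of 0.101 by limma, and it passed the threshold without adult sample 1 (0.0377) or 3 (0.0442). Txn2, the mitochondrial thioredoxin, was at 39.3, 44.1 and 30.9 FPKM in adult and 31.6, 61.0 and 61.8 FPKM at E16.5, with an interval of -1.27 to 0.52 and a change of 0.02 after quantile normalization. Txn2 held 41.3% ± 9.75 of the summed FPKM of the group in adult and 24.3% ± 8.03 at E16.5, and Txn1 held 18.3% ± 19.0 and 49.7% ± 12.9, both without overlap.

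Glutathione is made in a pair of steps. Glutamate-cysteine ligase, of the catalytic subunit Gclc and the modifier Gclm, carries out the limiting first step, glutathione synthetase (Gss) the second, and glutathione reductase (Gsr) regenerates the reduced form. Gss (chr2:155563181-155592810, minus strand) was at 0, 2.71 and 0 FPKM in adult and 15.0, 15.7 and 31.7 FPKM at E16.5. Its change of -3.73 ± 0.77 had an adjusted p of 0.0279 by limma, which rose to 0.0592 without adult replicate 1 and to 0.0980, 0.0984 and 0.103 without E16.5 replicates 1, 2 and 3. Gclc was at 9.73, 5.03 and 1.62 FPKM in adult and 10.5, 3.31 and 8.47 FPKM at E16.5, and Gclm at 11.3, 9.05 and 0 against 11.0, 13.2 and 6.86 FPKM. Both overlapped between the ages, and their intervals ran from -2.27 to 1.30 and from -3.51 to 1.22. Gsr was at 19.8, 14.7 and 7.14 FPKM in adult and 26.1, 55.0 and 25.3 FPKM at E16.5, without overlap and with an adjusted p of 0.144. Thus only the synthetase was called among the 4 genes. The 2 adult values of Gss listed at 0 may be failed estimates. Of its 50-base stretches, 10.3% occurred also in other genes, mainly Acss2.

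Of the 16 soluble glutathione S-transferases tested, 2 were called lower in adult and none higher, where 8.83% and 2.12% of all genes tested were. Gsta4, an alpha-class enzyme that conjugates the lipid peroxidation product 4-hydroxynonenal (chr9:78182774-78209349, plus strand), had the highest mean of them at both ages. It was at 159, 189 and 287 FPKM in adult and 587, 581 and 427 FPKM at E16.5. The change of -1.36 ± 0.30 had an adjusted p of 0.0321 by limma, the call held in 8 of 18 alternatives, and it was lost with median-ratio scaling (0.0677), quantile normalization (0.106), without adult replicate 1 (0.0651) and without E16.5 replicate 1, 2 or 3 (0.114, 0.115 and 0.0754). The alpha-class genes Gsta1 and Gsta2 were listed at 0 throughout, and 90.5% and 49.8% of their 50-base stretches occurred in other genes. Gstt2, of the theta class, was at 0, 0.773 and 0 FPKM in adult and 11.5, 13.9 and 7.55 FPKM at E16.5 (change -3.27 ± 0.64, adjusted p = 0.0243 by limma, and 0.0545, 0.0887, 0.0861 and 0.0701 without adult replicate 1 and without E16.5 replicates 1, 2 and 3). Its neighbours on chromosome 10, Gstt1 and Gstt3, were not called.

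The mu-class genes lie side by side on chromosome 3, from Gstm5 (start 107895821) to Gstm4 (end 108044894). Within 150 kb, 6 of the 7 were tested and none was called. Gstm1 was at 60.4, 121 and 281 FPKM in adult and 87.3, 66.4 and 66.6 FPKM at E16.5, and Gstm5 at 138, 36.0 and 132 against 141, 118 and 156 FPKM. Gstm6 was listed at 0 in every adult sample and was at 1.26, 6.12 and 10.4 FPKM at E16.5 (adjusted p = 0.0683 by limma, and 0.0388 with a pseudocount of 0.1). Some reads can be shared with other genes, as 18.9% of the 50-base stretches of Gstm1, mostly with the pseudogene Gstm2-ps1, and 5.97% of those of Gstm6 occurred elsewhere. In the pi class, Gstp1 was at 65.1, 60.3 and 15.1 FPKM in adult and 37.0, 29.4 and 59.1 FPKM at E16.5. The omega-class Gsto2 was listed at 0 in 5 samples, all those of E16.5 among them, and was at 9.19 FPKM in adult sample 1.

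By share, Gsta4 made up 31.3% ± 2.39 of the summed transferase FPKM in adult and 52.3% ± 5.86 at E16.5. Gstm1 made up 20.9% ± 9.25 and 7.22% ± 0.60, and the kappa-class Gstk1, chosen after its values were seen, 5.67% ± 1.50 and 1.39% ± 1.51. None of these overlapped. The sum itself, 539 to 948 FPKM in adult and 923 to 1116 FPKM at E16.5, overlapped on the deposited scale and was apart with every sample at the same sum.

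The microsomal transferases are membrane proteins of a family that also makes leukotrienes and prostaglandins. Mgst3 was listed at 0 in all adult samples and was at 34.7, 27.7 and 2.36 FPKM at E16.5. Its adjusted p of 0.0456 by limma held in 7 of 18 alternatives and was 0.0920, 0.0655 and 0.0526 when adult replicate 1, 2 or 3 was left out, and 0.140 and 0.148 when E16.5 replicate 1 or 2 was. Of the 9 calls it held in the fewest alternatives. Mgst1, which acts on lipid hydroperoxides, was at 21.4, 37.6 and 10.2 FPKM in adult and 14.4, 12.0 and 17.3 FPKM at E16.5, with overlap (adjusted p = 0.579), and its sign turned with every sample at the same sum.

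Ephx1, the microsomal epoxide hydrolase, which opens reactive epoxides into diols (chr1:180976210-181020904, minus strand), had the second highest mean of the members in adult ChP. It was at 277, 450 and 319 FPKM in adult and 59.8, 72.1 and 94.0 FPKM at E16.5. The groups were apart with means of 349 ± 89.9 and 75.3 ± 17.4 FPKM (SD, n = 3 each), and the change of 2.19 ± 0.30 had an adjusted p of 0.00829 by limma. The call was lost without E16.5 replicate 1 (0.0552) or 2 (0.0632) and held in the other 16 alternatives. Nqo1, a quinone reductase that is a classical NRF2 target, was instead at 35.6, 73.8 and 60.0 FPKM in adult and 196, 121 and 99.0 FPKM at E16.5 (change -1.28 ± 0.40, adjusted p = 0.0767 by limma). These detoxification enzymes thus exchanged places within their group of 5 genes, with Ephx1 at 76.5% ± 2.81 of the summed FPKM in adult and 26.3% ± 7.95 at E16.5, and Nqo1 at 12.2% ± 2.02 and 46.9% ± 12.5.

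NRF2 itself was not called. Nfe2l2 was at 30.4, 62.7 and 24.9 FPKM in adult and 47.3, 56.9 and 58.1 FPKM at E16.5, with an interval of -1.52 to 0.40. Keap1 was at 5.28, 11.6 and 0 FPKM in adult and 13.5, 23.1 and 18.9 FPKM at E16.5, without overlap (adjusted p = 0.169). Hmox1, the heme oxygenase that NRF2 induces, was at 0, 8.95 and 17.6 FPKM in adult and 7.02, 2.39 and 3.65 FPKM at E16.5, and its sign depended on the pseudocount. The summed level of the 5 genes was 349 to 607 FPKM in adult and 274 to 324 FPKM at E16.5, most of it Ephx1 in adult, and it overlapped with every sample at the same sum.

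**Figure D3:**
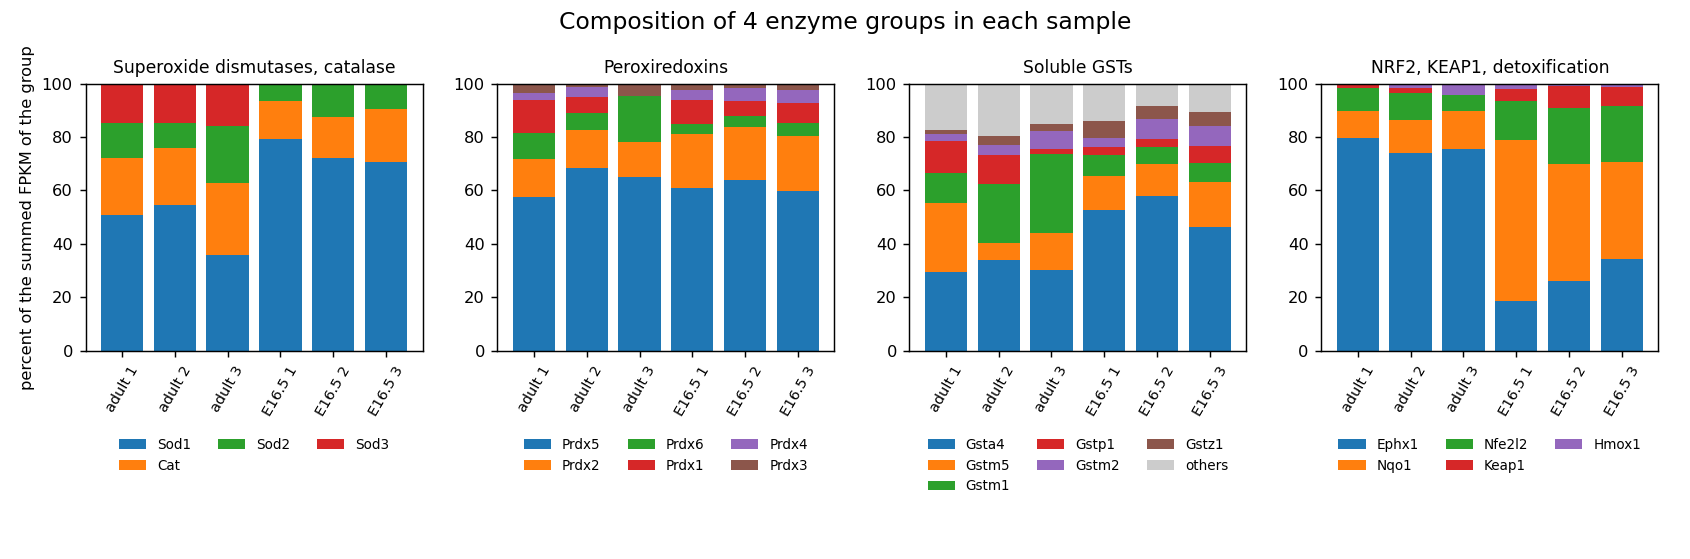
Share of each gene in the summed FPKM of its enzyme group, in percent, for each of the 3 adult and 3 E16.5 samples. Each stacked bar is a sample. Sod3 is visible in adult bars only, Ephx1 fills about the same share of the 3 adult bars (74.1% to 79.6%), and Prdx5 takes a like share at both ages.

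NRF2 binds the antioxidant response element, whose core is TGACNNNGC, where N is any base. Both strands of the RefSeq promoters (300 bases, from 250 before the start to 50 after it, GRCm38.p6) were searched. Of the 49 members with such a promoter, 9 (18.4%) held the core, against 14% of 27025 genes. The 9 were Gclm, Gsta3, Gstm5, Gstm7, Mgst1, Nfe2l2, Prdx1, Sod1 and Txnrd1, none of which was called. The overlapping AP-1 site TGACTCA stood in 10.2% of members and 5.95% of genes. A match is a string of letters and no evidence of binding. Windows of 29 bases for 5 members whose function is described here are shown with the core in capitals, all read on the minus strand, at chr3:122245413-122245441, chr2:75704885-75704913, chr4:116685456-116685484, chr16:90220696-90220724 and chr10:82859104-82859132 in this order:
Gclm: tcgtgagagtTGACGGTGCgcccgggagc
Nfe2l2: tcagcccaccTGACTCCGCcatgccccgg
Prdx1: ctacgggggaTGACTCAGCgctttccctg
Sod1: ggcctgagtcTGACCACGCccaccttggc
Txnrd1: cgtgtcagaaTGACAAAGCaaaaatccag

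Genes around these enzymes were read from lists of related pathways. Beside the counts of each list stand the shares of all genes tested, 2.12% called higher in adult and 8.83% called higher at E16.5. Among 13 regulators beside NRF2, 2 rose with age and 2 fell. Nfe2l1, a relative of NRF2 that governs proteasome genes, was at 115, 125 and 152 FPKM in adult and 42.2, 46.0 and 35.0 FPKM at E16.5 (change 1.65 ± 0.28, adjusted p = 0.0167 by limma). Sqstm1, the autophagy receptor p62 that can bind KEAP1, was at 505, 544 and 449 against 239, 223 and 262 FPKM (change 1.04, adjusted p = 0.0292). Bach1, a repressor at NRF2 sites, was at 1.53, 1.71 and 0 FPKM in adult and 18.5, 13.9 and 9.10 FPKM at E16.5 (adjusted p = 0.0406), and the small Maf protein Maff was at 0 to 0.135 against 9.61 to 14.1 FPKM (adjusted p = 0.0144). These calls rested on all samples, as each was lost in at least 1 leave-one-out fit. Of the 20 calls over all the related lists, 1 was left when any one of the E16.5 samples was removed.

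Of 15 other NRF2 targets, the aldehyde oxidase Aox1 was higher in adult (19.2 to 36.1 against 3.20 to 7.75 FPKM, adjusted p = 0.0441), and Slc7a11, Ugt1a6a and Ugdh were lower. Ugdh, which makes the sugar donor for glucuronidation, averaged 18.1 FPKM in adult against 68.4 at E16.5 (adjusted p = 0.0206), and Ugt1a6a, a glucuronosyltransferase whose exons overlap those of its neighbours, was near 0 in adult and at 3.92 to 41.8 FPKM at E16.5. Slc7a11, the cystine carrier that feeds glutathione synthesis, was at 2.15, 1.59 and 0.0362 FPKM in adult and 9.77, 15.2 and 16.9 FPKM at E16.5 (adjusted p = 0.0427 by limma). It also stands among the 14 genes of glutathione supply and breakdown, where Abcc4, an exporter of organic anions, was higher in adult (29.8 to 51.1 against 6.33 to 8.54 FPKM, adjusted p = 0.0260) and Glo1, which uses glutathione to clear methylglyoxal, was lower (27.5 to 63.7 against 90.7 to 295 FPKM, adjusted p = 0.0449). The supply genes thus went both ways.

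Of 15 genes of NADPH supply none was called higher in adult and 2 were called lower, where 2.12% and 8.83% of all genes tested were. Idh2, the mitochondrial isocitrate dehydrogenase, was at 85.8, 122 and 91.5 FPKM in adult and 307, 370 and 463 FPKM at E16.5 (change -1.91 ± 0.27, adjusted p = 0.00961 by limma), and the cytosolic Idh1 was at 34.9 to 50.8 against 81.4 to 102 FPKM (adjusted p = 0.0496). Among 29 glutaredoxins and proteins with a thioredoxin fold, Tmx4 was higher in adult (37.1 to 94.4 against 9.10 to 13.9 FPKM) and Tmx1 (13.4 to 25.7 against 56.0 to 88.2 FPKM) and the methionine sulfoxide reductase Msrb2 (0.258 to 0.913 against 10.8 to 30.3 FPKM) were lower. Both Tmx proteins sit in the membrane of the endoplasmic reticulum, and they moved in opposite directions. Of 12 genes of selenoprotein synthesis, only Eefsec, the elongation factor that delivers selenocysteine, was called (0 to 0.455 against 3.62 to 12.9 FPKM, adjusted p = 0.0368). Of 7 relatives of the transferases, only Eef1g was called.

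Among 8 tested genes that produce oxidants, Maob, the mitochondrial monoamine oxidase that releases hydrogen peroxide, was at 122, 139 and 99.1 FPKM in adult and 4.15, 4.49 and 7.89 FPKM at E16.5. Its change of 4.25 ± 0.39 had an adjusted p of 0.00257 by limma and stayed at 0.0391 or below in every leave-one-out fit. Nos1 was at 8.79 to 11.6 FPKM in adult and 0.207 to 1.62 FPKM at E16.5 (adjusted p = 0.0355), and Cyba, a subunit of NADPH oxidases, was listed at 0 in adult and at 25.1, 15.3 and 3.74 FPKM at E16.5 (adjusted p = 0.0312). Over all these lists, 7 of the 108 genes tested rose with age (6.48%, against 2.12% of all genes tested) and 13 fell (12%, against 8.83%). The lists were chosen with earlier results of these data known, so these shares only describe them.

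**Figure D4:**
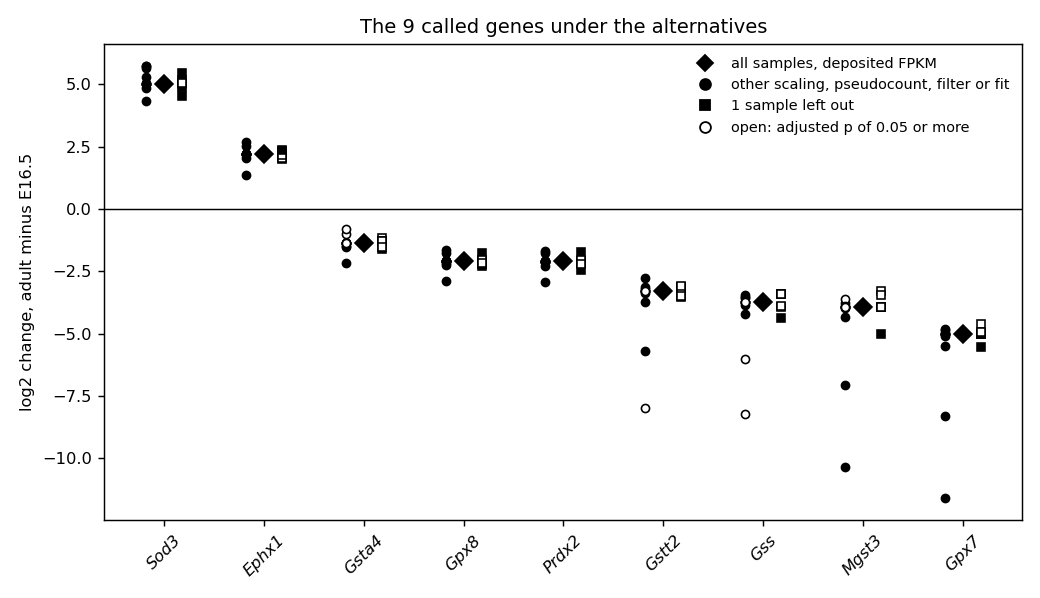
Change of the 9 called genes (log2, adult minus E16.5) with all samples (diamonds), under another scaling, pseudocount, filter or fit (circles) and with 1 sample left out (squares). Filled symbols have an adjusted p under 0.05 and open ones do not. No symbol crosses 0. Sod3, Ephx1 and Gpx7 have few open symbols and Mgst3 has many.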

How the data were processed

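TRAP-seq libraries (Clontech SMARTer Pico, ribodepleted, 50-base single-end reads) were aligned by the authors to mm10 with STAR 2.4.0, and the deposited values are FPKM per gene made with Cuffquant of Cufflinks. The authors tested counts, which were not used here. From the FPKM, genes with a mean above 1 were kept, log2(FPKM + 1) was fitted with limma 3.58.1 (trend, two-sided) in R 4.3.3 over all 6 samples, and p-values were adjusted by Benjamini-Hochberg at 0.05. The fit was tested on simulated data. An exact permutation test of 3 against 3 cannot go below 0.1. FPKM hold no depth, so relative depth was estimated from steps between low values, of which 66.7% to 82.1% lay within 0.1 of a whole read, and no counting interval is given. Sequences and shared 50-base stretches came from GENCODE M21 and RefSeq.

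Members and lists were chosen with earlier results of these data known. Named are called members, members listed at 0 at 1 age, 26 genes set by symbol, the 8 highest members at each age, up to 3 called genes a direction per pathway list, and the leading and called markers. The alternatives were pseudocounts, filters, scalings, no trend, sample weights, a replicate block, a threshold of 0.01 and leaving out each sample.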

Additional observations from a re-analysis of the deposited data

How the results depend on the processing

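The 9 called genes kept their sign in all 162 alternative values, of which 50 missed the threshold. Genes called higher in adult among all tested (246) numbered 119 with every sample at the same sum, 464 after quantile normalization, 158 without a trend and 56 at a threshold of 0.01, and those higher at E16.5 (1024) numbered 3200, 453 and 132 with the same sum, quantile normalization and that threshold, and 656 with median-ratio scaling. Members lower in adult (7) numbered 17 with the same sum, 11 with the same sum without Mir6236 and 1 at a threshold of 0.01. The members' median change was -1.83 with the same sum, and relative to all genes it was 0.10 with a pseudocount of 0.01. Leaving out 1 sample gave 27 to 357 and 16 to 1704 genes over the table, 0 to 2 and 0 to 12 members, and 1 to 7 and 0 to 23 pathway genes, higher in adult and at E16.5. Members lower in adult fell to 0, 0 and 2 without E16.5 replicates 1, 2 and 3 and to 4 without adult replicate 1, and rose to 12 without adult replicate 2 or 3.

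Same-numbered samples of the 2 ages are not said to share animals, and their deviations correlated at 0.00089, 0.044 and 0.015. The fit with a replicate block called 112 genes up and 452 down with age over the table, and 2 and 3 of the members.

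Signs turned only in members that were not called. With median-ratio scaling the changes became 0.32 (Cat), 0.30 (Gstp1) and 0.088 (Prdx6). After quantile normalization they became 0.49 (Cat), 0.62 (Gclc), 0.45 (Gstp1), 0.58 (Gstt3), 0.17 (Prdx6) and 0.018 (Txn2). With the same sum they became -0.023 (Gstm1), -0.39 (Hmox1), -0.31 (Mgst1) and -0.70 (Sod2, and -0.035 without Mir6236). With sample weights they became 0.013 (Cat), -0.21 (Gsta3), 0.34 (Gstp1) and -0.20 (Hmox1). Hmox1 was at -0.69 and -1.76 with pseudocounts of 0.1 and 0.01. With 1 sample left out the change ran from -0.10 to 0.037 (Cat), -0.97 to 0.051 (Gclc), -1.80 to 0.014 (Gclm), -1.71 to 1.76 (Gpx4), -1.20 to 2.09 (Gsta3), -2.15 to 0.21 (Gstm7), -0.39 to 0.63 (Gstp1), -1.01 to 0.13 (Gstt3), -0.67 to 1.44 (Hmox1), -0.73 to 0.20 (Prdx6), -0.018 to 0.35 (Sod2). The cause of these shifts was not tested. The adult group was the less precise, with a median SD over genes of 0.98 (log2) against 0.45 at E16.5, and its libraries were also the shallower by estimate.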
